A study of Mus musculus with 10 samples.

Results

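Primary granule genes are the genes whose products fill the azurophilic granules of the neutrophil lineage, or are made alongside them. The 9 genes described here were taken from the RNA-seq table by symbol: Mpo, Elane, Prtn3, Ctsg, Prss57, Ms4a3, Fcnb, Hp and Lyz2. They are 9 of the 23240 genes of the table, and all 9 passed the filter on low values that left 10905 genes for testing. Fcnb passed that filter through the GMP libraries alone, and Hp through the GMP and XMP libraries.

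Neutrophils make their granules in a fixed sequence during differentiation. The primary granules come early, at the promyelocyte stage, when myeloperoxidase and the neutrophil serine proteases are made in bulk, and the genes for this cargo are switched on in granulocyte-monocyte progenitors and switched off before the later granules are formed. C/EBP factors, PU.1, MYB and RUNX1 are known regulators of these genes, and RUNX1 is a DNA-binding factor on which blood formation depends.

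The cells were bone-marrow progenitors of mice, gated on lin- sca- kit+ cells without CD41 or CD105 and then divided by CD16/32, an Fc receptor, and CD150, a surface protein of stem cells and of megakaryocyte and erythroid progenitors. GMP (granulocyte-monocyte progenitors) were CD16/32+ CD150-, MEP (megakaryocyte-erythroid progenitors) were CD16/32- CD150+, and XMP were CD16/32+ CD150+. Wild-type cells were Runx1wt/wt, from Runx1+/+-Tg(vav-Cre) mice, and Runx1-deleted cells were Runx1Δ/Δ, from Runx1fl/fl-Tg(vav-Cre) mice. The vav-Cre transgene was therefore present in all 5 groups, controls included. It drives the Cre recombinase from a promoter active in blood cells, so the deletion was not limited to the progenitors sorted. The groups were wild-type GMP, Runx1-deleted GMP, wild-type MEP, Runx1-deleted MEP and XMP, which were sorted from Runx1-deleted marrow alone. Each group holds 2 libraries, and the labels give no age and do not say whether the 2 libraries came from separate animals, so the p-values reflect the spread of these libraries, which may be technical.

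Levels are in RPKM (reads divided by the length of the gene and by the reads of the library), which are scaled by gene length, so that levels of different genes can be compared. Fold changes are differences of log2(RPKM + 1) ± SE from limma over all 10905 genes, and they understate the change of genes near or under 1 RPKM. A gene was called when its Benjamini-Hochberg adjusted p was under 0.05. The read totals worked back from the RPKM values were 20.8 to 54.9 M per library, and a level of 0.0182 to 0.0480 RPKM stands for 1 read per kb of gene. Wild-type GMP was sequenced in lanes 3 and 2 and Runx1-deleted GMP in lane 5, so lane and genotype cannot be told apart in GMP. In wild-type GMP, genes longer than 4617 bp lay 0.310 and 0.381 lower on the log2 scale, relative to genes shorter than 1539 bp, than over all libraries, and in Runx1-deleted GMP 0.301 and 0.216 higher. On the same measure wild-type MEP was at -0.945 and 0.139, Runx1-deleted MEP at -0.003 and 0.275, and XMP at 0.247 and 0.512. Wild-type MEP library 1 lay farthest out, so comparisons with MEP and XMP carry this trend as well. Runx1 itself was at 28.5 and 26.8 RPKM in wild-type GMP and at 63.0 and 72.3 RPKM in Runx1-deleted GMP. These are reads over the whole gene and do not check the deletion of a part of it.

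Promoters of 7 of the 9 genes were in the RefSeq table of GRCm38.p6. The 250 bases before the transcript start of 5 of them are shown, each 5′ to 3′ on the strand of its gene: the 4 most abundant members, and Fcnb, the member with the lowest level. They lie at chr11:87793534-87793783 (Mpo, plus strand), chr10:79886062-79886311 (Elane, plus strand), chr10:79879417-79879666 (Prtn3, plus strand), chr14:56102575-56102824 (Ctsg, minus strand) and chr2:28084879-28085128 (Fcnb, minus strand). Capitals mark the letters GAGGAA, which ETS factors such as PU.1 can bind, and TGTGGT or its reverse complement ACCACA, which RUNX factors can bind.

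Mpo: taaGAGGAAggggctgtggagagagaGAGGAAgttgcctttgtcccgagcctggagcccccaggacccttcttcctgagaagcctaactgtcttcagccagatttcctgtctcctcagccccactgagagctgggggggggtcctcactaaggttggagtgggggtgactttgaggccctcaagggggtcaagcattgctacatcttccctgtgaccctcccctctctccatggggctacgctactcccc
Elane: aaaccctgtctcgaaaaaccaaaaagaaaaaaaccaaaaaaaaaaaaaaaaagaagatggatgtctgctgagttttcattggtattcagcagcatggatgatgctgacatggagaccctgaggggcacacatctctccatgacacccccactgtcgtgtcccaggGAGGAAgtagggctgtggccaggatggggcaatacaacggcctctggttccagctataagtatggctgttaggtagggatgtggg
Prtn3: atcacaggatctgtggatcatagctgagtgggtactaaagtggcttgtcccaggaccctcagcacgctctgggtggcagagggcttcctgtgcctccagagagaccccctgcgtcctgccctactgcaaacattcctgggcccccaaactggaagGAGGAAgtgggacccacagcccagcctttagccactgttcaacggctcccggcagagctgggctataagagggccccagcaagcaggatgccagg
Ctsg: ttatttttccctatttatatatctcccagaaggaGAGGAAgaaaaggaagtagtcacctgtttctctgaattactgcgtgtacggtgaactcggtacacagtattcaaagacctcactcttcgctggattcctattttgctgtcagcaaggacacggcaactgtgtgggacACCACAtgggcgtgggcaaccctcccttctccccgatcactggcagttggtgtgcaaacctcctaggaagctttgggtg
Fcnb: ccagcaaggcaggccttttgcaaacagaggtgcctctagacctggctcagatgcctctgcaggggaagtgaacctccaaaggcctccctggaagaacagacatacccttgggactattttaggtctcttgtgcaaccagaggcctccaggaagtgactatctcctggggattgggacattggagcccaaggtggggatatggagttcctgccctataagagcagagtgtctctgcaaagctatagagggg

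GAGGAA was found on either strand in 4 of the 7 promoters, and in 23.3% of all 32851 promoters of the table. In Elane it ends 80 bases before the start, in Prtn3 90 bases and in Ctsg 211 bases, and Mpo holds it at 247 to 242 and at 224 to 219 bases before the start. The RUNX letters were found in 2 of the 7, Ctsg (79 to 74 bases before the start) and Lyz2 (66 to 61), and in 14.0% of all promoters. TTNNGNAA, which C/EBP factors can bind, was found in Fcnb, Lyz2 and Ms4a3 (3 of 7, 36.8% of all), and TAACNG, which MYB can bind, in Elane and Mpo (2 of 7, 19.8% of all). No match overlapped another. A match is a description of the letters and not a bound site, and its absence from this window says nothing of the factor.

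In wild-type GMP the levels of these genes spanned a wide range, with Mpo and the 3 main serine proteases at the top. Mpo, the peroxidase that makes hypochlorous acid, was at 5643.9 and 4917.6 RPKM, which ranked it at 1 and 3 among all genes of those libraries. The serine proteases Elane (neutrophil elastase), Ctsg (cathepsin G) and Prtn3 (proteinase 3) followed at 2495.7 ± 201.4, 2116.1 ± 227.8 and 1647.0 ± 83.3 RPKM (SD, n = 2). Ms4a3, a membrane protein of granulocyte and monocyte progenitors, was at 348.6 ± 42.6 RPKM. Hp, the haemoglobin-binding haptoglobin, and Lyz2, a lysozyme of neutrophils and macrophages, were at 118.5 ± 4.69 and 116.8 ± 15.5 RPKM and overlapped each other. Prss57, neutrophil serine protease 4, was at 58.1 ± 12.2 RPKM, and Fcnb, the lectin ficolin-B, at 13.6 ± 4.23 RPKM. Over the 2 libraries Elane, Ctsg and Prtn3 ranked at 21 to 54 among all genes, Prss57 at 1033 to 1485 and Fcnb at 3773 to 5407. The 9 genes together held 2.63% and 2.59% of the summed RPKM of the wild-type GMP libraries, against 2.09% and 2.05% in Runx1-deleted GMP, 0.0210% and 0.0212% in wild-type MEP, 0.0153% and 0.0136% in Runx1-deleted MEP, and 0.0689% and 0.0577% in XMP.

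**Figure D1:**
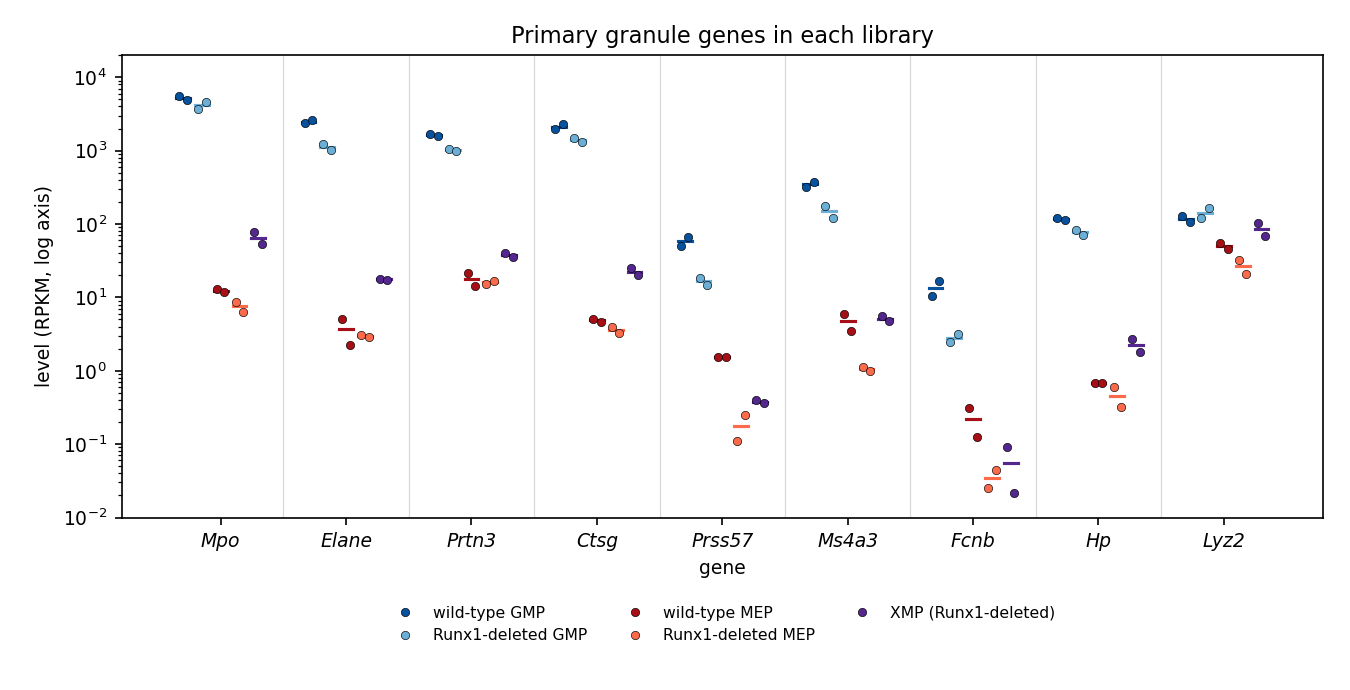
Level of each of the 9 genes in each of the 10 libraries, in RPKM on a log axis, with a point for each library and a mark at each group mean. Apart from Lyz2, the GMP libraries of both genotypes lie far above the MEP and XMP libraries; Mpo reaches 5643.9 RPKM in wild-type GMP and 6.42 to 13 RPKM in MEP.

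How far these genes separate the lineages that the sort divides is seen between the GMP and MEP of wild-type mice. All 9 were higher in GMP (median log2 fold change 6.15, against -0.056 over all genes tested), where 11.7% of genes tested were called higher. Since Fcnb and Hp entered the test only through groups in which they are high, the count is a description. Elane differed most: it was at 2353.3 and 2638.2 RPKM in GMP and 5.14 and 2.25 RPKM in MEP, a log2 fold change of 9.12 ± 0.25 (limma, adjusted p = 3.95e-09). Mpo (8.62 ± 0.23) and Ctsg (8.49 ± 0.18) followed. Lyz2 differed least, with 127.7 and 105.8 RPKM in GMP and 54.5 and 45.6 RPKM in MEP (1.20 ± 0.26, limma adjusted p = 0.00638), and this call was lost without wild-type GMP library 1 (adjusted p = 0.0632) and with weights by group (0.137). Its level in MEP was 42.9% of that in GMP, while for the other 8 genes it was 0.148% to 2.64%. Lyz2 has a near-identical neighbour, Lyz1, and how reads were divided between them is uncertain. Lyz1 was at 12.8 and 34.7 RPKM in wild-type GMP. In bulk libraries such as these, fewer cells of a type and less RNA per cell cannot be told apart.

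The order of the genes also differed between the populations. In wild-type MEP Lyz2 led (50.1 ± 6.33 RPKM), ahead of Prtn3 (17.9 ± 5.30) and Mpo (12.4 ± 0.832). Prtn3 was below Elane in all 4 GMP libraries, at 0.602 to 0.974 of its level, but at 4.21 to 6.29 times its level in the 4 MEP libraries and at 2.23 and 2.01 times in XMP. Prtn3 and Elane are direct neighbours on chromosome 10. Ctsg kept a narrower ratio to Mpo, from 0.284 to 0.507 in all 10 libraries, although the level of Mpo ranged from 6.42 to 5643.9 RPKM. These ratios were computed from levels per length, with no test.

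Deletion of Runx1 in GMP was accompanied by lower levels of some of these genes. Elane, Prss57, Ms4a3 and Fcnb fell, and none rose. The 4 lower calls among 9 stand beside 2.07% of all genes tested that were called lower and 3.15% that were called higher in GMP, and the median log2 fold change of the 9 was -0.69, against 0.049 over all genes tested. The values of the 2 genotypes did not overlap in 8 of the 9, with the Runx1-deleted libraries below both wild-type ones, and the same holds for 29.4% of all genes tested.

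Fcnb was at 10.6 and 16.6 RPKM in wild-type GMP and 2.5 and 3.14 RPKM in Runx1-deleted GMP, from 448, 367, 146 and 154 reads. Its level after deletion was 20.8% of wild type, and its log2 fold change was -1.90 ± 0.20 (limma, adjusted p = 0.000297). Prss57, whose product cleaves after arginine, was at 49.5 and 66.7 RPKM in wild-type and 18.3 and 14.7 RPKM in Runx1-deleted GMP, which is 28.5% of wild type (-1.75 ± 0.20, limma adjusted p = 0.00044). Both falls were called in every alternative run that kept the gene. They were the largest of the 9 although Fcnb and Prss57 are the least abundant of them in GMP.

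Ms4a3 was at 318.5 and 378.8 RPKM in wild-type and 178.3 and 120.4 RPKM in Runx1-deleted GMP (-1.24 ± 0.25, limma adjusted p = 0.0135). Elane was at 2353.3 and 2638.2 RPKM in wild-type and 1237.3 and 1022.6 RPKM in Runx1-deleted GMP, which is 45.3% of wild type (-1.15 ± 0.25, limma adjusted p = 0.0245). The groups did not overlap for either gene, but the 2 calls depend on the fit. With a pseudocount of 0.1 Elane was not called (limma, adjusted p = 0.0564). With no filter neither gene was (0.0534 for Ms4a3 and 0.0833 for Elane). Quantile normalization ended both, at adjusted p = 0.137 for Ms4a3 and 0.206 for Elane, and so did leaving out wild-type GMP library 2 (0.174 and 0.229) or Runx1-deleted GMP library 2 (0.177 and 0.21). For Elane, leaving out wild-type GMP library 1 (adjusted p = 0.0744) or Runx1-deleted GMP library 1 (0.0883) ended the call too.

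The other proteases and the peroxidase were not called in GMP. Prtn3 was at 1705.9 and 1588.1 RPKM in wild-type and 1038.1 and 995.7 RPKM in Runx1-deleted GMP (-0.69 ± 0.20, limma adjusted p = 0.0794). Ctsg was at 1955.0 and 2277.1 RPKM against 1502.3 and 1291.9 RPKM (-0.60 ± 0.18, adjusted p = 0.0868), and Hp at 121.8 and 115.2 RPKM against 83.1 and 70.3 RPKM (-0.63 ± 0.20, adjusted p = 0.102). For these 3 genes the lowest wild-type library was above the highest Runx1-deleted one, and leaving out either wild-type MEP library, which enters the shared estimate of the spread, brought all 3 under the threshold.

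Mpo was at 5643.9 and 4917.6 RPKM in wild-type and 3743.0 and 4545.9 RPKM in Runx1-deleted GMP, 78.5% of wild type, with a log2 fold change of -0.35 ± 0.23 (limma, adjusted p = 0.366) that turned to 0.19 under quantile normalization. It was the most abundant gene of both Runx1-deleted GMP libraries. Lyz2, at 127.7 and 105.8 RPKM against 119.5 and 164.4 RPKM, was the member whose genotypes overlapped in GMP (0.27 ± 0.26, adjusted p = 0.56). In the authors' deposited table, which gives p-values of Baggerley's test, 3 of the 9 were under an FDR of 0.05 in this comparison (Prtn3 2.20e-08, Elane 0.000104 and Prss57 0.00755), against 0.925% of all genes of the table. Fcnb (0.139) and Ms4a3 (0.0712), both called by limma, were not. By the same test none of the 9 passed in MEP, against 0.775% of all genes. In XMP 7 passed against Runx1-deleted GMP (3.74% of all genes) and 5 against Runx1-deleted MEP (1.64%). Hp and Ms4a3, which limma called in that last comparison, were not among the 5.

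The proportions of the genes to each other in GMP differed between the genotypes. Ctsg was at 0.831 and 0.863 of the level of Elane in wild-type GMP and at 1.21 and 1.26 of it in Runx1-deleted GMP. Elane was at 0.417 and 0.536 of the level of Mpo in wild-type and 0.331 and 0.225 in Runx1-deleted GMP, and Fcnb at 0.00188 and 0.00337 against 0.000669 and 0.000692. None of these ratios overlapped between the genotypes, but others did. Ctsg was at 0.346 and 0.463 of the level of Mpo in wild-type and 0.401 and 0.284 in Runx1-deleted GMP. Hp was at 0.0216 and 0.0234 of it against 0.0222 and 0.0155. Mpo is the longer gene in each ratio to it here, so these ratios also carry the trend over gene length that differed between the genotypes. No ratio was tested.

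The trend over gene length differed between the 2 genotypes of GMP as given above, and 7 of the 9 genes are shorter than 1539 bp; the other 2 are Mpo (2546 bp) and Prss57 (2693 bp). With the trend over length removed from each library, the same number of members was called lower in GMP (4), and the estimates for the short proteases moved nearer to 0: Elane from -1.15 to -0.81 (limma, adjusted p = 0.0277), Prtn3 from -0.69 to -0.38 and Ctsg from -0.60 to -0.30. For Prss57, the longest of the 9, the estimate was -1.81 (adjusted p = 0.000936), and for Fcnb -1.63 (0.00188).

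**Figure D2:**
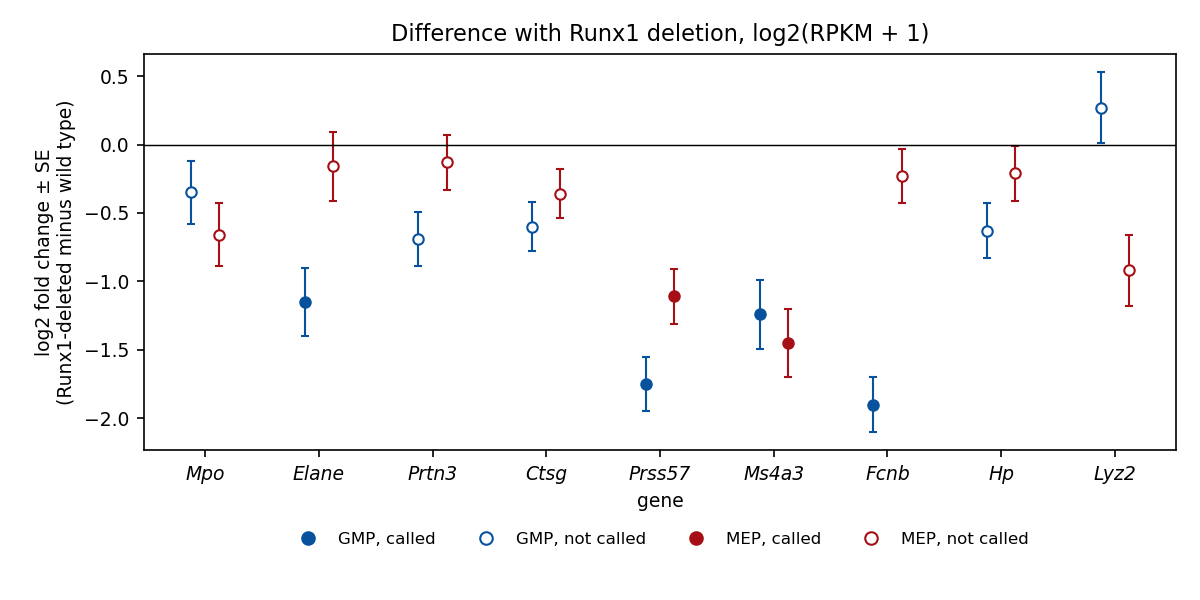
Difference of log2(RPKM + 1) between Runx1-deleted and wild-type libraries for each of the 9 genes, in GMP and in MEP, with bars of 1 SE from limma; filled points were called. Fcnb (-1.90) and Prss57 (-1.75) lie lowest in GMP, Ms4a3 (-1.45) and Prss57 (-1.11) in MEP.

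In MEP the levels were low in both genotypes, and Prss57 and Ms4a3 fell with the deletion. These 2 lower calls among 9 stand beside 4.03% of all genes tested, and the median log2 fold change of the 9 was -0.36, against 0.029 over all. Prss57 was at 1.53 and 1.54 RPKM in wild-type MEP (150 and 188 reads) and 0.109 and 0.246 RPKM in Runx1-deleted MEP (11 and 28 reads), with a log2 fold change of -1.11 ± 0.20 (limma, adjusted p = 0.00619). On summed reads its level was 11.8% of wild type (95% exact conditional binomial interval 8.28% to 16.5%, counting error only). Ms4a3 was at 6.03 and 3.50 RPKM in wild-type and 1.11 and 1.0 RPKM in Runx1-deleted MEP (-1.45 ± 0.25, adjusted p = 0.0045). With weights by group neither was called (adjusted p = 0.104 and 0.105), and without Runx1-deleted MEP library 1 Prss57 was at an adjusted p of 0.0585.

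Lyz2 was at 54.5 and 45.6 RPKM in wild-type and 32.3 and 20.6 RPKM in Runx1-deleted MEP (-0.92 ± 0.26, limma adjusted p = 0.0589). The libraries of the 2 genotypes did not overlap, and the gene was called without wild-type MEP library 2 (adjusted p = 0.0409) or Runx1-deleted MEP library 1 (0.0438), and with the length trend removed (0.0428) or quantile normalization (0.0282). Mpo was at 13 and 11.9 RPKM against 8.73 and 6.42 RPKM (-0.66 ± 0.23, adjusted p = 0.111), and was called with the length trend removed (0.0325) or the block of sample code numbers (0.0225). The genotypes overlapped in MEP for Elane (5.14 and 2.25 against 3.09 and 2.93 RPKM) and for Prtn3 (21.6 and 14.1 against 15.3 and 16.6 RPKM). Without wild-type MEP library 1 the estimate for Elane was 0.30, and without library 2 it was -0.62 and called (adjusted p = 0.0339). Fcnb came to 12 and 6 reads in wild-type and 1 and 2 reads in Runx1-deleted MEP, a ratio of 0.171 (95% interval 0.0323 to 0.586, counting error only), and was not called (adjusted p = 0.532). Over the 9 genes, 7 had both Runx1-deleted MEP libraries below both wild-type ones, and 21.0% of all genes tested did. Some markers of other cell types were called with the deletion in MEP, where 433 of all 10905 genes tested were called higher and 439 lower. Of 10 erythroid markers 6 were called higher and none lower, and of 10 megakaryocyte markers 4 higher and none lower. Their sums overlapped between wild-type and Runx1-deleted MEP. The erythroid sum was 1683.1 to 1692.4 against 1638.4 to 1835.5 RPKM, and the megakaryocyte sum 814.8 to 898.5 against 738.7 to 881.2 RPKM. The sum of 9 lymphoid markers was 126.3 to 181.9 RPKM in wild-type and 5.99 to 10.3 RPKM in Runx1-deleted MEP. That difference rests on Nkg7, at 177.6 and 121.8 RPKM in wild-type and 4.08 and 8.11 RPKM in Runx1-deleted MEP. Of 9 basophil and mast cell markers tested 3 were called lower and none higher, and of 5 eosinophil markers 1 lower and none higher. Of 9 monocyte markers tested 2 were called lower and 1 higher, and of 8 GMP markers 2 lower and 2 higher. The part of these cell types in the levels of the granule genes was not tested.

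The difference between the effect in GMP and the effect in MEP was tested for each gene. Fcnb alone, which entered the test only through the GMP libraries, was called (-1.67 ± 0.29, limma adjusted p = 0.0138), where 0.789% of all genes tested were called in that direction. This call rests on the scale used: on log2(RPKM + 1) a fall from 0.310 and 0.124 RPKM in MEP is nearly flat. By ratio of means, Fcnb after deletion was at 16% of wild type in MEP and 20.8% in GMP, and with a pseudocount of 0.1 the difference was -1.03 at an adjusted p of 0.706. It was also lost without either Runx1-deleted GMP library (adjusted p = 0.075 and 0.0502) or either Runx1-deleted MEP library (0.0577 and 0.0682). Elane was called in GMP and not in MEP, but the difference of its effects did not pass (-0.99 ± 0.36, adjusted p = 0.294) unless wild-type MEP library 1 was left out (-1.45, 0.0193). That of Lyz2, whose estimates in GMP and MEP have opposite signs, did not pass (1.19 ± 0.37, adjusted p = 0.195) except with quantile normalization (0.0435), with the length trend removed (0.0402) or with the block of sample code numbers (0.0215). Ms4a3 and Prss57 were the members called in both populations, and the difference of their effects was 0.21 ± 0.35 and -0.64 ± 0.28 (adjusted p = 0.999 and 0.467). The sign for Prss57 rests on the scale too. By ratio of means, Prss57 after deletion was at 11.6% of wild type in MEP and 28.5% in GMP. Ms4a3 was at 22.2% in MEP and 42.8% in GMP. With a pseudocount of 0.1 the differences were 0.80 for Prss57 and 0.78 for Ms4a3 (limma, adjusted p = 0.664 and 0.615).

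In Runx1-deleted cells too, all 9 genes were called higher in GMP than in MEP (median log2 fold change 5.91), where 14.1% of all genes tested were; as in wild type, this count is a description, since Fcnb and Hp entered the test through groups in which they are high. Mpo reached 8.92 ± 0.23 and Elane 8.13 ± 0.25 (limma, adjusted p = 2.34e-09 and 1.21e-08).

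XMP carry the CD16/32 of GMP and the CD150 of MEP. They held most of these genes at a few percent of the level in Runx1-deleted GMP and above that in Runx1-deleted MEP. Against Runx1-deleted GMP, 8 of the 9 genes were lower (median log2 fold change -4.59, against 0.050 over all genes tested), where 9.9% of all genes tested were called lower. The count includes Fcnb, which entered the test only through GMP, and is a description. Mpo was at 76.9 and 53.8 RPKM in XMP, 1.58% of its level in Runx1-deleted GMP (-5.98 ± 0.23, limma adjusted p = 8.19e-08). Elane was at 18.0 and 17.4 RPKM (1.57%), Ctsg at 24.9 and 20.1 RPKM (1.61%) and Prtn3 at 40.0 and 35.0 RPKM (3.69%). Ms4a3 was at 5.55 and 4.74 RPKM (3.44%), Hp at 2.70 and 1.79 RPKM (2.93%) and Prss57 at 0.399 and 0.358 RPKM (2.29%). Fcnb came to 4 and 1 reads in XMP, 1.97% of its level in Runx1-deleted GMP on summed reads (95% interval 0.635% to 4.65%). The libraries of XMP lay below those of Runx1-deleted GMP for all 9 genes, as for 28.6% of all genes tested.

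Lyz2 was the exception. It was at 101.8 and 68.6 RPKM in XMP and 119.5 and 164.4 RPKM in Runx1-deleted GMP, 60.0% of that level. In the main fit it was not called (-0.74 ± 0.26, limma adjusted p = 0.0786), and without XMP library 1 its estimate was -1.02. It was called with the length trend removed (-0.72, limma adjusted p = 0.0159), quantile normalization (0.0283), weights by group (0.0184) or the block of sample code numbers (0.00491). Together with Mpo, which it overlapped, it led the 9 genes in XMP, where its level was 1.32 and 1.27 times that of Mpo. In Runx1-deleted GMP it was at 0.0319 and 0.0362 of the level of Mpo, and in wild-type GMP at 0.0226 and 0.0215.

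Against Runx1-deleted MEP, XMP held more of 7 of the 9 genes (median log2 fold change 1.58, against 0.047 over all genes tested), where 5.14% of all genes tested were called higher. This comparison and the one with Runx1-deleted GMP share the XMP libraries. Mpo was 8.63 times as high in XMP (76.9 and 53.8 against 8.73 and 6.42 RPKM), with a log2 fold change of 2.94 ± 0.23 (limma, adjusted p = 9.53e-05). Ctsg was 6.28 times as high (2.35 ± 0.18, adjusted p = 9.53e-05), Elane 5.88 times (2.22 ± 0.25, adjusted p = 0.000679) and Ms4a3 4.86 times (1.58 ± 0.25, adjusted p = 0.00336).

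Lyz2 was 3.22 times as high in XMP as in Runx1-deleted MEP (1.66 ± 0.26, limma adjusted p = 0.00376). Hp (4.92 times, adjusted p = 0.00565) and Prtn3 (2.35 times, adjusted p = 0.00553) were called as well, but not without XMP library 1 (0.0756 and 0.0608), and Hp not without Runx1-deleted MEP library 2 (0.0553). Prss57 and Fcnb were not called. Prss57 was at 45 and 42 reads in XMP and 11 and 28 reads in Runx1-deleted MEP, a ratio of 2.08 on summed reads (95% interval 1.41 to 3.12, counting error only), and Fcnb at 5 reads over the 2 libraries of XMP against 3. The XMP libraries lay above those of Runx1-deleted MEP for 8 of the 9 genes, as for 33.6% of all genes tested.

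**Figure D3:**
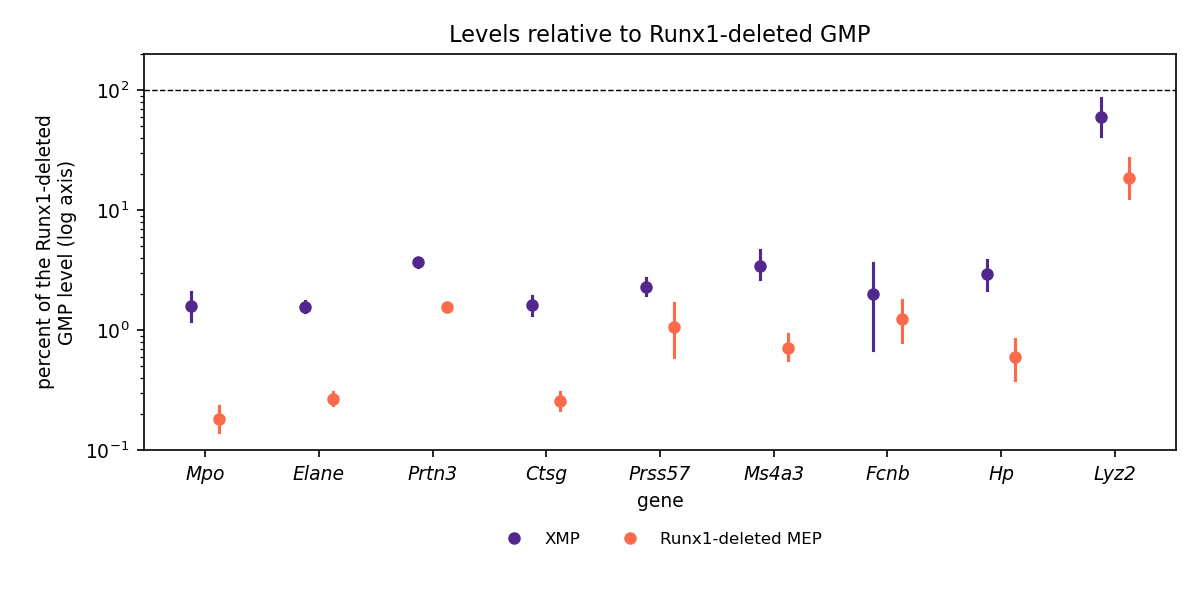
Level of each of the 9 genes in XMP and in Runx1-deleted MEP as a percentage of its level in Runx1-deleted GMP, on a log axis, with points for the ratio of group means and bars from the lowest to the highest ratio of single libraries; the dashed line is at 100%. Most members lie at 1.57% to 3.69% in XMP and 0.183% to 1.57% in MEP, and Lyz2 at 60.0% and 18.6%.

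Markers of GMP and of other cell types also differed between the groups, not all in the direction of the granule genes. The summed level of 8 GMP markers (Cebpa, Csf3r, Gfi1, Irf8, Csf1r, Fcgr3, Fcgr2b and Csf2rb) was 473.7 to 514.0 RPKM in wild-type GMP, 431.7 to 473.3 in Runx1-deleted GMP, 18.9 to 27.8 in MEP and 108.9 to 139.4 in XMP. Within that list, Gfi1 in XMP was at 1.61% of its level in Runx1-deleted GMP and Cebpa at 5.53%. Csf2rb was at 50.7% and Fcgr2b at 102.0%, while Fcgr3 was at 3.15%. Fcgr2b and Fcgr3 are genes of the Fc receptor by which GMP and XMP were gated, so their levels are not independent of the sort. Fcgr2b had a mean of 66.0 RPKM in XMP, a large part of the sum of 108.9 to 139.4 RPKM there. The sum of 10 megakaryocyte markers was 41.4 to 53.5 RPKM in wild-type GMP, 134.3 to 160.1 in Runx1-deleted GMP, 738.7 to 881.2 in Runx1-deleted MEP and 1550.0 to 1943.4 in XMP. In GMP 5 of these 10 were called higher with the deletion and none lower (median 1.12), beside 3.15% and 2.07% of all genes tested. The sums of 10 basophil and mast cell markers (702.0 to 766.8 in wild-type and 346.7 to 383.0 RPKM in Runx1-deleted cells) and of 7 eosinophil markers (609.0 to 621.1 and 164.9 to 308.2) were lower in GMP after the deletion. Of the basophil and mast cell markers 5 of 9 tested were called lower in GMP and 1 higher, of the eosinophil markers 4 of 5 lower. The sum of 10 monocyte markers was 880.3 to 915.4 in wild-type and 490.9 to 593.8 RPKM in Runx1-deleted GMP, a difference that rests on Ly6c2. The sum of the other 9 was 284.8 to 373.8 in wild-type and 414.4 to 507.9 RPKM in Runx1-deleted GMP. That rise rests in turn on F13a1, at 85.3 and 64.0 RPKM in wild-type and 211.4 and 245.6 RPKM in Runx1-deleted GMP. Of the 9 tested 2 were called lower (Ly6c2 and Klf4) and 1 higher (F13a1). No marker of these lists was at 0 in both libraries of a GMP group; Tpsb2 was at 0 in both MEP groups and XMP, and Cx3cr1 in Runx1-deleted MEP. The part of these cells in the levels of the granule genes was not tested.

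Genes that process, pack or inhibit the granule cargo, or lysosomal enzymes held with it, were followed as a list of 23, of which 22 were tested. In GMP 3 fell with the deletion and none rose, with a median of -0.09, beside 2.07% of all genes tested called lower and 3.15% called higher. Cd63, a tetraspanin of the granule membrane, was at 385.6 and 469.5 RPKM in wild-type and 110.7 and 63.2 RPKM in Runx1-deleted GMP (-2.33 ± 0.27, limma adjusted p = 0.000552). Nkg7, a membrane protein of cytotoxic granules that also serves as a lymphoid marker, went from 263.3 and 323.4 to 118.1 and 86.6 RPKM (-1.52 ± 0.31, adjusted p = 0.0153). Srgn, the proteoglycan on which granule proteases are packed, went from 1041.7 and 1240.5 to 606.0 and 576.4 RPKM (-0.94 ± 0.24, adjusted p = 0.0486). Ctsc, the peptidase that activates the serine proteases, was at 24.7 and 19.5 RPKM against 24.1 and 24.4 RPKM and was not called (0.14 ± 0.20, adjusted p = 0.714). In XMP against Runx1-deleted GMP, 14 of the 22 were lower and none higher (median -1.10), where 9.9% of all genes tested were called lower. Among the 14 were the elastase inhibitor Serpinb1a (-1.95), Clec5a (-2.15), Arsb (-3.25) and the mast cell protease Cpa3 (-3.03). Srgn was not among them (0.10 ± 0.24, adjusted p = 0.869), at 645.9 and 618.8 RPKM in XMP. Against Runx1-deleted MEP, 5 were higher in XMP, where 5.14% of all genes tested were, among them Serpinb1a, Nkg7, Cst7 and Cd63.

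Of 22 genes of the later granules and of mature neutrophils, 16 were tested. In GMP 1 rose with the deletion and none fell (median -0.31), beside 3.15% of all genes tested called higher and 2.07% called lower. The gene that rose was Cxcr2, a chemokine receptor, which went from 6.48 and 5.64 to 13.1 and 12.5 RPKM (0.97 ± 0.18, limma adjusted p = 0.0101). Cargo of the later granules differed widely in level: over the 4 GMP libraries Ltf (lactoferrin) was at 0.284 to 0.553 RPKM and Camp (cathelicidin) at 0.608 to 1.44, Lcn2 (lipocalin 2) at 7.24 to 13 and Pglyrp1 (a peptidoglycan-binding protein) at 48.4 to 89.4. In XMP against Runx1-deleted GMP 10 of the 16 were lower (median -1.24), where 9.9% of all genes tested were. Among the 10 were Pglyrp1 (-3.91), Anxa1 (-3.87), Slpi (-3.17) and Itgam (-2.38). Against Runx1-deleted MEP 3 were higher, where 5.14% of all genes tested were: Cxcr2 (2.21), Pglyrp1 (1.38) and S100a9 (1.19).

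Of 20 regulators of granule genes, 18 were tested, and in GMP 1 fell and 2 rose (median -0.14). Of all genes tested, 2.07% were called lower and 3.15% higher there. Cebpa, which encodes C/EBPα, a factor needed to form GMP, went from 107.2 and 132.6 to 43.7 and 49.1 RPKM (-1.35 ± 0.18, limma adjusted p = 0.00108). Csf3r, the G-CSF receptor, went from 37.0 and 25.1 to 62.6 and 64.6 RPKM (1.04 ± 0.24, adjusted p = 0.0272), and the other called gene was Runx1 itself (1.26 ± 0.20). Gfi1, a repressor that acts in granulocyte formation, was at 29.7 and 32.4 against 28.7 and 27.3 RPKM (-0.14 ± 0.17, adjusted p = 0.631), and Sfpi1, which encodes PU.1, at 160.2 and 144.5 against 107.1 and 145.5 RPKM (-0.28 ± 0.21, adjusted p = 0.428). In XMP against Runx1-deleted GMP 12 of the 18 were lower and 2 higher (median -1.32), beside 1080 lower and 1063 higher of all 10905 genes tested. Gfi1 was at 0.551 and 0.353 RPKM in XMP (-4.32 ± 0.17) and Cebpe, the factor of late granule genes, at 1.25 and 1.43 RPKM (-4.51 ± 0.20). Against Runx1-deleted MEP 10 of the 18 were higher in XMP and none lower, where 5.14% of all genes tested were called higher. Among the 10 were Csf2rb (2.17), Runx1 (1.05), Sfpi1 (0.99) and Cebpa (0.95).

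**Figure D4:**
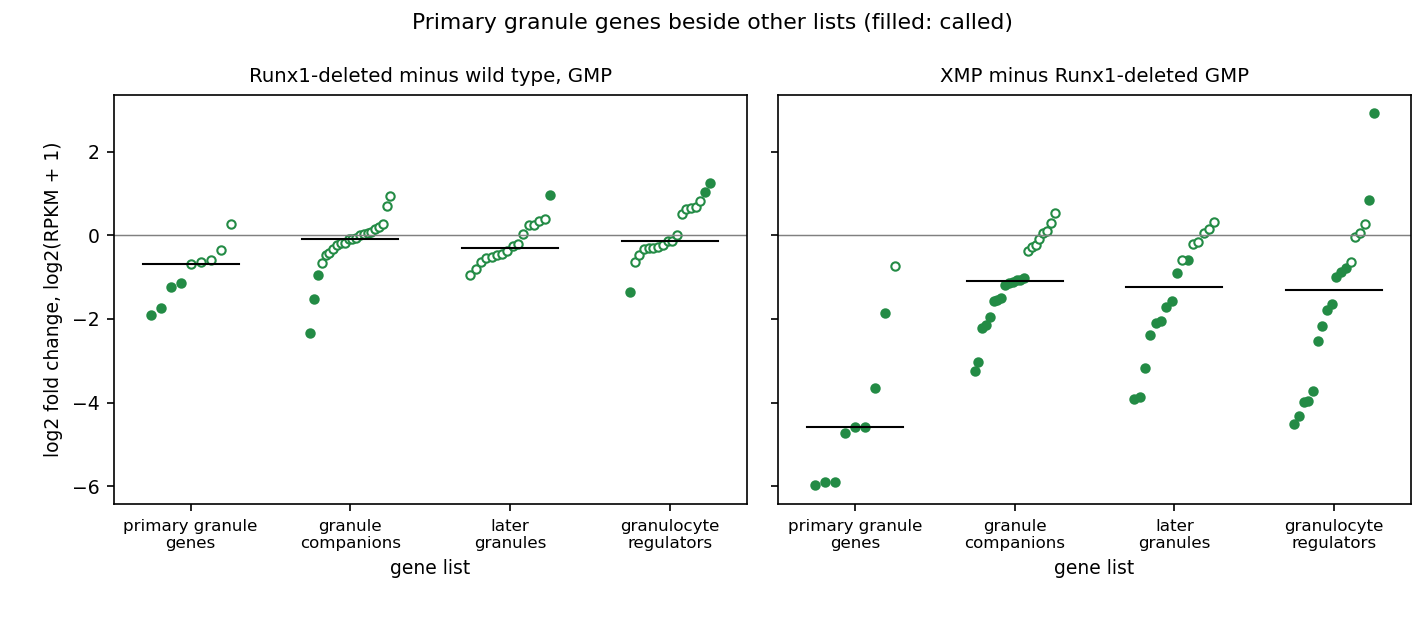
Differences of log2(RPKM + 1) for the tested genes of each list in 2 comparisons (Runx1-deleted against wild-type GMP, and XMP against Runx1-deleted GMP), with a point for each gene, filled where called, and a line at the median. The 9 primary granule genes have medians of -0.69 and -4.59, and the 22 genes that accompany them -0.09 and -1.10.

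Among genes outside the 9 with a mean of at least 20 RPKM in wild-type GMP (3374 genes), those whose log2 levels over the 10 libraries were most like the mean of the 9 were Clec12a, Fcgr3, Pglyrp1 and Ncf1 (Pearson r = 0.997 each) and Ly86 (0.996). Clec12a, an inhibitory lectin receptor, had means of 97.4 RPKM in wild-type GMP, 60.5 in Runx1-deleted GMP, 0.799 and 0.4 in the MEP groups and 1.61 in XMP. These r values describe 10 libraries in 5 groups, and with the 5 group means in their place 1 of these 5 genes stayed among the top 5. Of the 9 themselves, Hp was nearest to the mean of all 9 (0.998) and Lyz2 farthest from it (0.843), each being a part of that mean.

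Prss57, Prtn3 and Elane lie near each other on chromosome 10, with 4 protein-coding genes between Prss57 and Prtn3, in the gene order of RefSeq GRCm38.p6. Patterns of the genes among and beside them varied. Fstl3, a weakly expressed gene beside Prss57, fell from 1.13 and 1.35 RPKM in wild-type to 0.41 and 0.433 RPKM in Runx1-deleted GMP (-0.65 ± 0.13, limma adjusted p = 0.0135). Ptbp1, a splicing factor 2 genes from Prtn3, was at 161.7 ± 37.3 RPKM in wild-type GMP, 179.9 ± 2.10 in Runx1-deleted GMP and 184.6 to 189.8 on average in the MEP groups. Cfd, the gene after Elane, was at 0.326 to 0.493 RPKM in the 4 GMP libraries and at 0 in the 4 MEP libraries. Palm, next to Prss57, was also higher in GMP, at 80.4 and 63.6 RPKM in wild-type and 56.3 and 50.8 RPKM in Runx1-deleted cells (-0.41 ± 0.23, adjusted p = 0.306), with means of 17.2 to 21.6 RPKM in MEP and XMP.

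**Figure D5:**
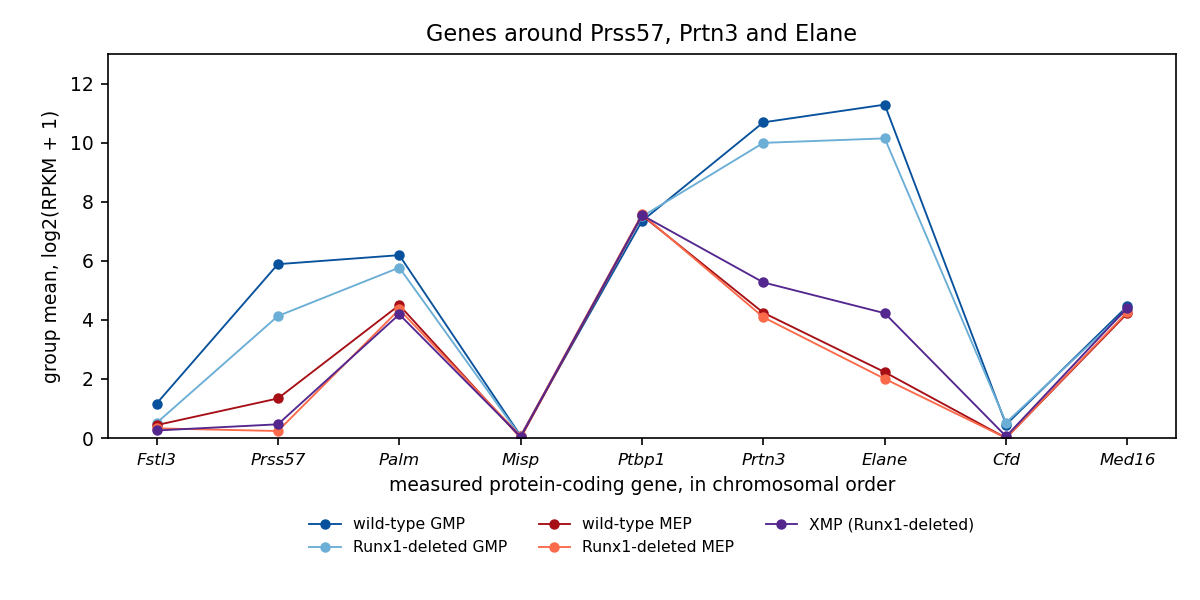
Mean level of the genes from Fstl3 to Med16 in their order along chromosome 10, as log2(mean RPKM + 1), in the 5 groups (lines only join the points of a group); distances are not to scale, and Plppr3 has no row in the table. Prss57, Prtn3 and Elane stand out in GMP, while Ptbp1 and Med16 lie at like levels in all groups.

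Near other members, some genes were called in GMP where the member was not. Next to Ctsg on chromosome 14 lies Mcpt8, a basophil protease, which went from 182.6 and 217.2 RPKM in wild-type to 9.29 and 8.50 RPKM in Runx1-deleted GMP (-4.34 ± 0.24, limma adjusted p = 2.74e-06), while Ctsg was not called. On chromosome 11, Epx, the eosinophil peroxidase related to Mpo and 3 genes from it, went from 41.7 and 25.9 to 10.9 and 7.32 RPKM (-1.77 ± 0.25, adjusted p = 0.00153), and Tspoap1, next to Mpo, rose from 7.63 and 5.45 to 17.2 and 16.3 RPKM (1.25 ± 0.25, adjusted p = 0.0135). Ms4a2, the beta chain of the IgE receptor and next to Ms4a3 on chromosome 19, was at 34.4 and 23.5 against 19.5 and 11.1 RPKM and was not called (-0.90 ± 0.40, adjusted p = 0.211).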

How the data were processed

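RNA-seq of 10 libraries (5 groups of 2) was analysed from the deposited table of 23240 genes. Its levels are RPKM values computed by the authors. The table also gives a p-value and an FDR for Baggerley's test of each pair of groups, per the file headers. Per the labels, either the TruSeq V2 LT kit or the NEBNext Ultra kit was used for a library, and the kit of each is not recorded. The submitters' processing notes name mm9 as genome build. Neither the aligner nor the program that counted reads is named in the sources used here.

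Tested were the 10905 genes that reached 1 RPKM in 2 or more libraries. Values were transformed to log2(RPKM + 1), and limma 3.58.1 (R 4.3.3, eBayes with trend) fitted a mean for each of the 5 groups to the 10 libraries, which leaves 5 residual degrees of freedom. Of the branches planned for counts and for normalized values, the latter was used. P-values were adjusted over all genes tested in each comparison (Benjamini-Hochberg), and adjusted p under 0.05 was called. Library totals and gene lengths were worked back from the steps between RPKM values: 19330 genes gave whole reads within 0.01 read in all libraries, 6 did not, and 3904 were at 0 throughout. The fit and this recovery were tested on simulated data. Intervals on reads cover counting error only.

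The members and the gene lists were chosen with earlier results of these data known. Named were the 9 members, up to 4 genes of each other list and direction with the smallest p among those called in the GMP comparison and in each XMP comparison, the 5 genes most like the members, and neighbours up to 3 genes away. Ctsc, Srgn (in XMP), Gfi1 and Sfpi1 (in GMP), Camp, Ltf, Lcn2, Pglyrp1 (in GMP), Ly6c2, Klf4, F13a1 and Lyz1 were named after their values were seen. Table symbols were matched to RefSeq names. Alternatives covered the pseudocount, the filter, the scaling, the spread, weights, gene length, blocks, lanes and each library left out.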

Additional observations from a re-analysis of the deposited data

Results flagged for a closer look

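The effect of the Runx1 deletion on Fcnb was called different between GMP and MEP by a test of the difference itself (-1.67 ± 0.29 on the log2(RPKM + 1) scale, limma adjusted p = 0.0138), with a fall in 2 of 2 Runx1-deleted GMP libraries. Fcnb entered the test only through the GMP libraries, and on this scale a fall at its MEP level cannot show: by ratio of means it was at 16% of wild type in MEP and 20.8% in GMP. In MEP the gene came to 12 and 6 reads in wild-type and 1 and 2 reads in Runx1-deleted libraries. The call was absent with a pseudocount of 0.1 (-1.03, adjusted p = 0.706), and over the alternatives the adjusted p ranged from 0.00829 to 0.706. Groups of 2 libraries are too small for the check for a sample far from the others.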

How the results depend on the processing

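Between GMP and MEP of either genotype and between XMP and the other Runx1-deleted groups, the number of members called stayed within 1.5 times in every alternative run. In GMP, the 4 members called lower became 2 with no filter, 2 with quantile normalization and 7 with weights by group, and 2 to 7 with a library left out. In MEP, the 2 called became 0 with weights by group, 4 with the length trend removed and 4 with the block of sample code numbers, and 2 to 4 with a library left out. For the difference of effects, the 1 called became 0 with a pseudocount of 0.1, 0 with no filter, 0 with a mean of at least 5 RPKM (Fcnb was then not tested), 0 with weights by group, 2 with quantile normalization, 2 with the length trend removed and 2 with the block of sample code numbers, and 0 to 2 with a library left out. Apart from fewer genes tested or fewer samples, the cause was not tested.

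Signs of the log2 fold change turned in these cases, none of them called. With quantile normalization: Mpo in GMP (0.19), Ctsg in the difference of effects (0.28) and Fcnb in XMP against Runx1-deleted MEP (-0.04). With the length trend removed, in MEP: Elane (0.14), Prtn3 (0.15) and Fcnb (0.03). With lanes 4 and 5 alone, and without wild-type MEP library 1, in MEP: Elane (0.30, against -0.62 without library 2) and Prtn3 (0.16, against -0.42). With values rescaled to 1 sum (TPM), Prtn3 in MEP (0.03); with a pseudocount of 0.1, Prss57 in the difference of effects (0.80). Ms4a3 in the difference of effects turned without Runx1-deleted GMP library 1 (-0.07) or wild-type MEP library 1 (-0.11), with 0.53 without wild-type MEP library 2 as the highest value, and Fcnb in XMP against Runx1-deleted MEP without XMP library 1 (-0.02, against 0.07 without library 2).

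The labels do not say that libraries with the same replicate number are pairs. Over the 10 pairs of groups, the correlation of their deviations ran from -0.475 to 0.782. Some also shared a lane. Library 1 of Runx1-deleted MEP shared lane 5 with library 1 of XMP (0.782) and of Runx1-deleted GMP (-0.341). Library 1 of wild-type GMP shared lane 3 with library 1 of wild-type MEP (-0.111). The block of sample code numbers set lower against higher codes, with a library of every group in both sets. In that block the Runx1-deleted GMP libraries stood opposite to their replicate numbers. A replicate block left 4 members called in GMP and raised the count in MEP from 2 to 3, with Lyz2 added (-0.92, limma adjusted p = 0.041). Lanes 4 and 5 alone could not be run for the comparisons with wild-type GMP, which has no library there. Rescaling to TPM moved the median of all genes tested to 0.268 in GMP, 0.167 in MEP, 0.114 in XMP against Runx1-deleted GMP and 0.147 against Runx1-deleted MEP, and the split of all genes called in GMP from 343 higher and 226 lower to 333 and 128. Depth limits Fcnb and Prss57 outside GMP.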
